A study of Mus musculus with 6 samples.

Results

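Collagens, laminins, latent TGF-beta binding proteins (LTBPs), thrombospondins and fibulins, with fibronectin (Fn1) and Mamdc2, build the matrix between cells. The genes for these proteins were taken by symbol, as families and, for Fn1 and Mamdc2, singly, and no measured value is part of the rule. Of the 26699 genes in the files, 64 carried such a name. Of these 64, 55 were expressed, meaning that at least 3 of the 6 libraries held 10 or more counts. The same 55 entered the test, among 16843 genes. For 47 of them every library held 10 or more counts, and 8 passed through some libraries only, so that counts over the 55 describe the genes that passed and not all 64.

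The cells were primary macrophages grown from the hindlimb marrow of mice aged 8 weeks and kept for 48 hours with 30 ng/mL M-CSF and 50 ng/mL RANKL, which turns macrophages into bone-resorbing osteoclasts. The 3 control libraries came from Slc11a2flox/flox cells, which carried no Cre, and the 3 knockout (cKO) libraries from LysmCre-Slc11a2flox/flox cells. Slc11a2 encodes DMT1, a carrier of ferrous iron, and LysmCre is active in myeloid cells, so other cells in the dish would keep the floxed alleles intact. Every library received RANKL. Since the controls lacked Cre, the effect of Cre and the effect of losing Slc11a2 cannot be told apart. Total counts were 49720701 to 57797282 per library. In control replicates 1, 2 and 3 the Slc11a2 level was 118.5, 109.6 and 118.3 CPM (counts scaled to a common library total by TMM), and in cKO replicates 1, 2 and 3 it was 78.3, 82.8 and 87.4 CPM. This was a log2 fold change of -0.48 ± 0.06 (SE, edgeR adjusted p = 0.00219). All 10 macrophage markers and all 10 osteoclast markers passed the filter on low counts. Passing does not by itself mark a cell type, since 17 of 20 markers of stroma and osteoblasts passed too. Mean levels of the macrophage markers ran from 16.2 (Fcgr1) to 17105 CPM (Lyz2) in control and from 20.1 to 7783 in cKO. Those of the osteoclast markers ran from 56.3 (Calcr) to 6377 CPM (Mmp9) in control and from 45.3 to 4670 in cKO.

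Fibrillar collagens form the ropes of connective tissue, type IV collagen and laminins form basement membranes, and type VI collagen forms beaded filaments close to cells. Fibronectin, thrombospondins and fibulins link these networks to each other and to integrins. LTBPs hold latent TGF-beta in the matrix, where osteoclasts release it during bone resorption. Stromal cells and osteoblasts are the main source of type I collagen in bone marrow, and macrophages are known to make fibronectin, thrombospondin-1 and type VI collagen.

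The bases just before the annotated starts of 4 genes that rose in the cKO libraries are shown because Col6a1 and Col6a2 encode partner chains and moved together, and Ltbp2 and Ltbp3 encode related proteins. The sequences are RefSeq's, on GRCm38.p6, printed 5′ to 3′ along the gene's strand, and cut where the gene begins in the files. Capitals mark a GC box (GGGCGG on either strand). The AP-1 motif (TGANTCA), which would also have been in capitals, does not occur in these stretches. Col6a1 covers chr10:76726169-76726294, Col6a2 covers chr10:76623631-76623880 and Ltbp2 covers chr12:84876533-84876741, all on the minus strand. Ltbp3 covers chr19:5740650-5740899 on the plus strand.
Col6a1: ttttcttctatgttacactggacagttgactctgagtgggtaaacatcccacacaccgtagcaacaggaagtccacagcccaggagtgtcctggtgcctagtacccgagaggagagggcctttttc
Col6a2: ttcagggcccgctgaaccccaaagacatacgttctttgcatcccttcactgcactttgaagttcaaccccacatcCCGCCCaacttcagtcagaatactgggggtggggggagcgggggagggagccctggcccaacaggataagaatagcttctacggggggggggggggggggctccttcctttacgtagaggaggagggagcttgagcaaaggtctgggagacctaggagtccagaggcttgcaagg
Ltbp2: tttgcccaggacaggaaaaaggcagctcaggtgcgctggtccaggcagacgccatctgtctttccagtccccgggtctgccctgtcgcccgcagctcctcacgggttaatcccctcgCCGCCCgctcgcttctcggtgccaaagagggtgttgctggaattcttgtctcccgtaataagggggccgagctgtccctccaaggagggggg
Ltbp3: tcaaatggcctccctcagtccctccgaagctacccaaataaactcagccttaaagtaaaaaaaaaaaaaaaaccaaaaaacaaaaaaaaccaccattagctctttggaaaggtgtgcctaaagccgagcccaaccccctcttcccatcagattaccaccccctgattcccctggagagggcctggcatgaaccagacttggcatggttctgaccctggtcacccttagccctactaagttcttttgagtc

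The stretches of Col6a2 and Ltbp2 each held 1 GC box, and those of Col6a1 and Ltbp3 held 0. Their GC content was 51.6% for Col6a1, 59.2% for Col6a2, 63.2% for Ltbp2 and 47.2% for Ltbp3. A SMAD motif (CAGAC on either strand) occurred 1 time in the stretch of Col6a2, 2 times in that of Ltbp2, 1 time in that of Ltbp3 and 0 times in that of Col6a1. In the 250 bases before the start, 41 of the 55 expressed genes had a RefSeq entry, and 23 of the 41 held a GC box (56.1%), against 33.0% of all 27025 promoters. The SMAD motif was found in 22 of the 41 (53.7%) against 42.2% of all, a TATA box (TATAAA on either strand) in 4 (9.76%) against 12.98%, and AP-1 on either strand in 1 (2.44%), Col6a1, against 6.85%. That AP-1 motif lies in the bases of Col6a1 that are not printed. These motifs were chosen with the sequences in view, and a match describes letters only.

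Most of the matrix signal came from 4 genes. Fn1, Thbs1, Col1a1 and Col1a2 together gave 69.8 to 72.6% of the counts of the 64 genes, which as a whole took 1.47 to 2.05% of each library. Per length, in the deposited FPKM, Thbs1 (thrombospondin-1, an adhesive glycoprotein that can activate latent TGF-beta) stood at 422 ± 25.1 (SD, n = 3) in the control libraries. Fn1 stood at 370 ± 23.8 and Col1a1, the major chain of type I collagen, at 273 ± 19.6. Col1a2, the partner chain, stood at 98.1 ± 7.79. The deposited FPKM divide by a length near 1.15 times the union of all annotated exons. For Col1a2 that union is 12426 bp against 5348 bp for its longest transcript, so this scale places Col1a2 low. By longest transcript the same 4 genes remained in front, with Fn1 before Thbs1.

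Of the 55 genes, 18 had a mean above 10 FPKM over the 6 libraries and 22 a mean below 1 FPKM. Among fibrillar collagens the control means after type I were 50.8 FPKM for Col5a1, 38.1 for Col5a2, 10.5 for Col3a1, 3.71 for Col5a3, 3.63 for Col2a1 and 1.65 for Col27a1. Col11a1 (0.227), Col11a2 (0.200) and Col24a1 (0.0333) were below 1 FPKM. Type V collagen, which sets the width of type I fibrils, thus stood above type III, the collagen of soft tissue. In type VI collagen the control means were 47.0 FPKM for Col6a1, 28.4 for Col6a3, 17.2 for Col6a2 and 0.233 for Col6a4. Among fibril-associated collagens, which sit on the surface of fibrils, Col12a1 (38.7 FPKM) led, followed by Col16a1 (3.78), with Col19a1 (0.240), Col20a1 (0.253), Col9a3 (0.0700) and Col14a1 (0.0300) low.

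The type IV chains Col4a1 and Col4a2, which make the common network, had control means of 23.8 and 18.1 FPKM, while Col4a5 had 0.537 and Col4a4 had 0.0267. Of the laminin chains, which join as 1 alpha, 1 beta and 1 gamma, the gamma chain Lamc1 (15.8 FPKM) and the beta chain Lamb1 (8.11) were highest. The alpha chains were lower, at 2.58 for Lama5, 1.19 for Lama4, 0.157 for Lama2, 0.103 for Lama1 and 0.0900 for Lama3. Lamb2 stood at 3.48 and Lamb3 at 0.0367. Summed alpha chains were therefore below Lamc1 alone in these libraries.

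The remaining collagens were Col18a1 (14.7 FPKM in the control libraries), the source of endostatin, Col8a1 (8.68), Col15a1 (1.32), Col10a1 (0.0967), Col7a1 (0.0767), Col23a1 (0.0767) and Col8a2 (0.0333). Among glycoproteins, Fbln2 (42.0 FPKM), Mamdc2 (27.2) and Thbs2 (21.2) followed Fn1 and Thbs1. Ltbp3 had 6.53, Ltbp2 had 5.44, Ltbp1 had 4.82 and Ltbp4 had 0.307 FPKM. The order of genes with close FPKM can depend on the length used. By longest transcript Ltbp2 stood below Ltbp1, with ratios of 0.89, 0.87 and 0.79 in control replicates 1, 2 and 3. Fbln5, an elastic fibre protein, had 2.01, Fbln1 had 1.41, Fbln7 had 0.183 and Thbs3 had 0.243. The 9 genes that were not expressed were Col17a1, Col22a1, Col25a1, Col26a1, Col28a1, Col4a3, Col4a6, Lamc3 and Thbs4, and their highest count in any library was 16. By family, 32 of 39 collagens, 10 of 11 laminins, 3 of 4 thrombospondins, all 4 LTBPs and all 4 fibulins with a row were expressed. Col13a1, Col6a5, Col6a6, Col9a1 and Col9a2 are also annotated under such names and were not analysed here.

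**Figure D1:**
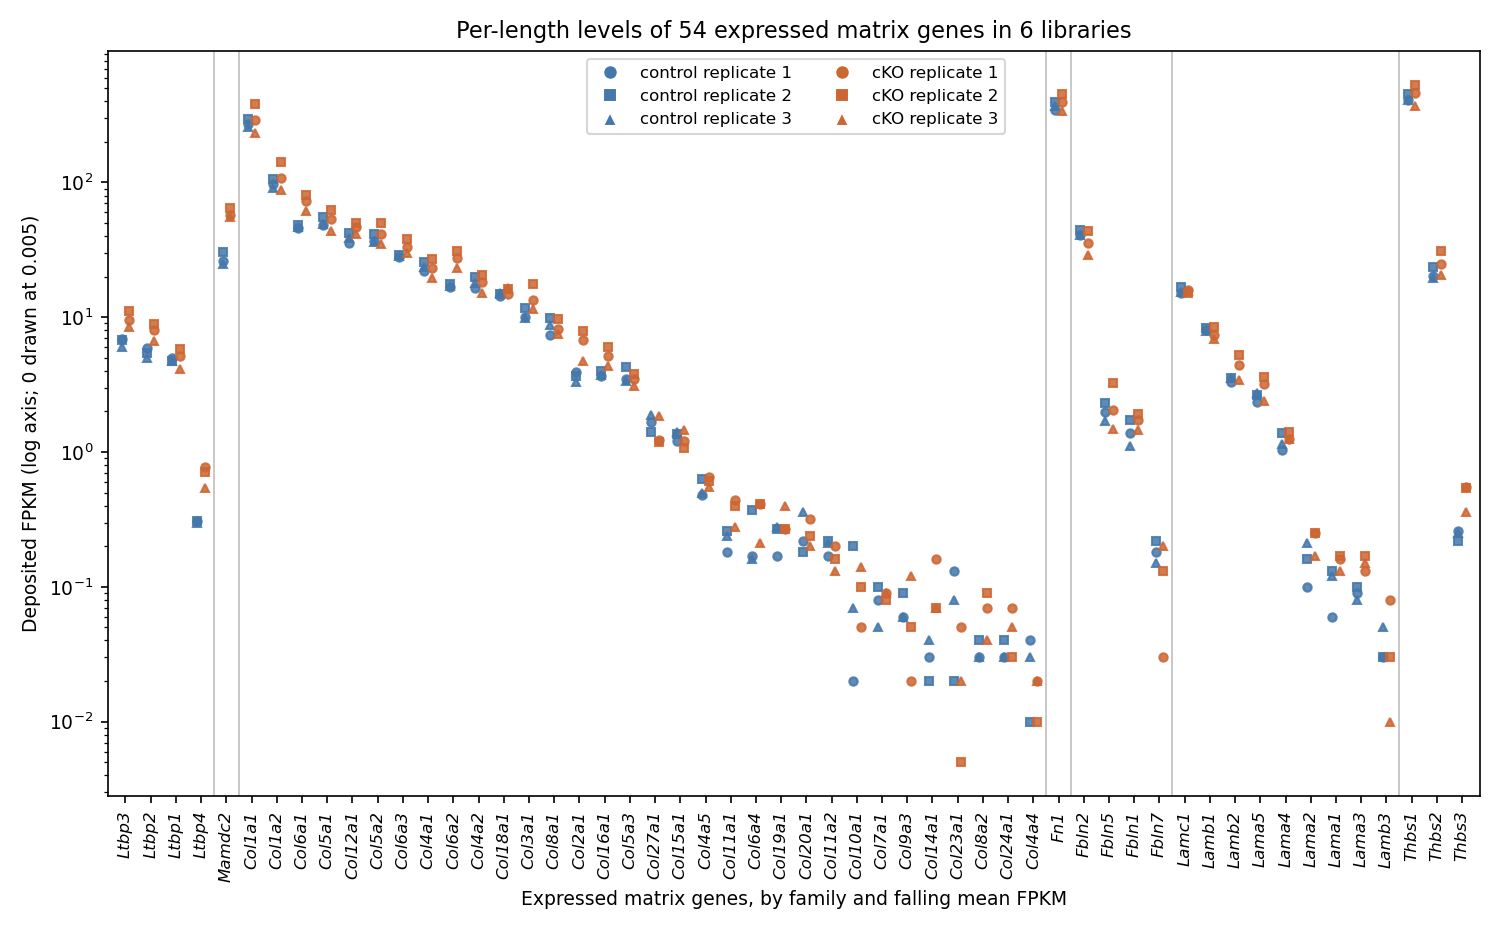
Deposited FPKM (log axis) of 54 expressed matrix genes, grouped by family, with 1 point for each of the 3 control and 3 cKO libraries. Thbs1, Fn1 and Col1a1 stand highest, and the Mamdc2 points of the cKO libraries lie above those of the control libraries.

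Between genotypes, 7 of the 55 genes were called at an adjusted p below 0.05, all higher in the cKO libraries: Mamdc2, Col6a2, Col6a1, Ltbp4, Ltbp3, Ltbp2 and Col16a1. None was called lower with edgeR, and DESeq2 called 1 lower. The 7 are 12.7% of the 55, and 2.42% of all tested genes were called, 1.36% higher and 1.06% lower. At an unadjusted p below 0.05, 16 were higher and 1 was lower, where all tested genes gave 8.38% and 8.79%. For 15 of the 55 every cKO library lay above every control library (background 11.1% of all tested genes), and for 1 every cKO library lay below (background 11.4%). The median log2 fold change of the 55 was 0.18 and that of all tested genes was 0.0015, and 39 of the 55 (70.9%) lay above 0 against 50.4% of all. In bulk RNA, fewer cells of a type and less RNA per cell cannot be told apart.

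**Figure D2:**
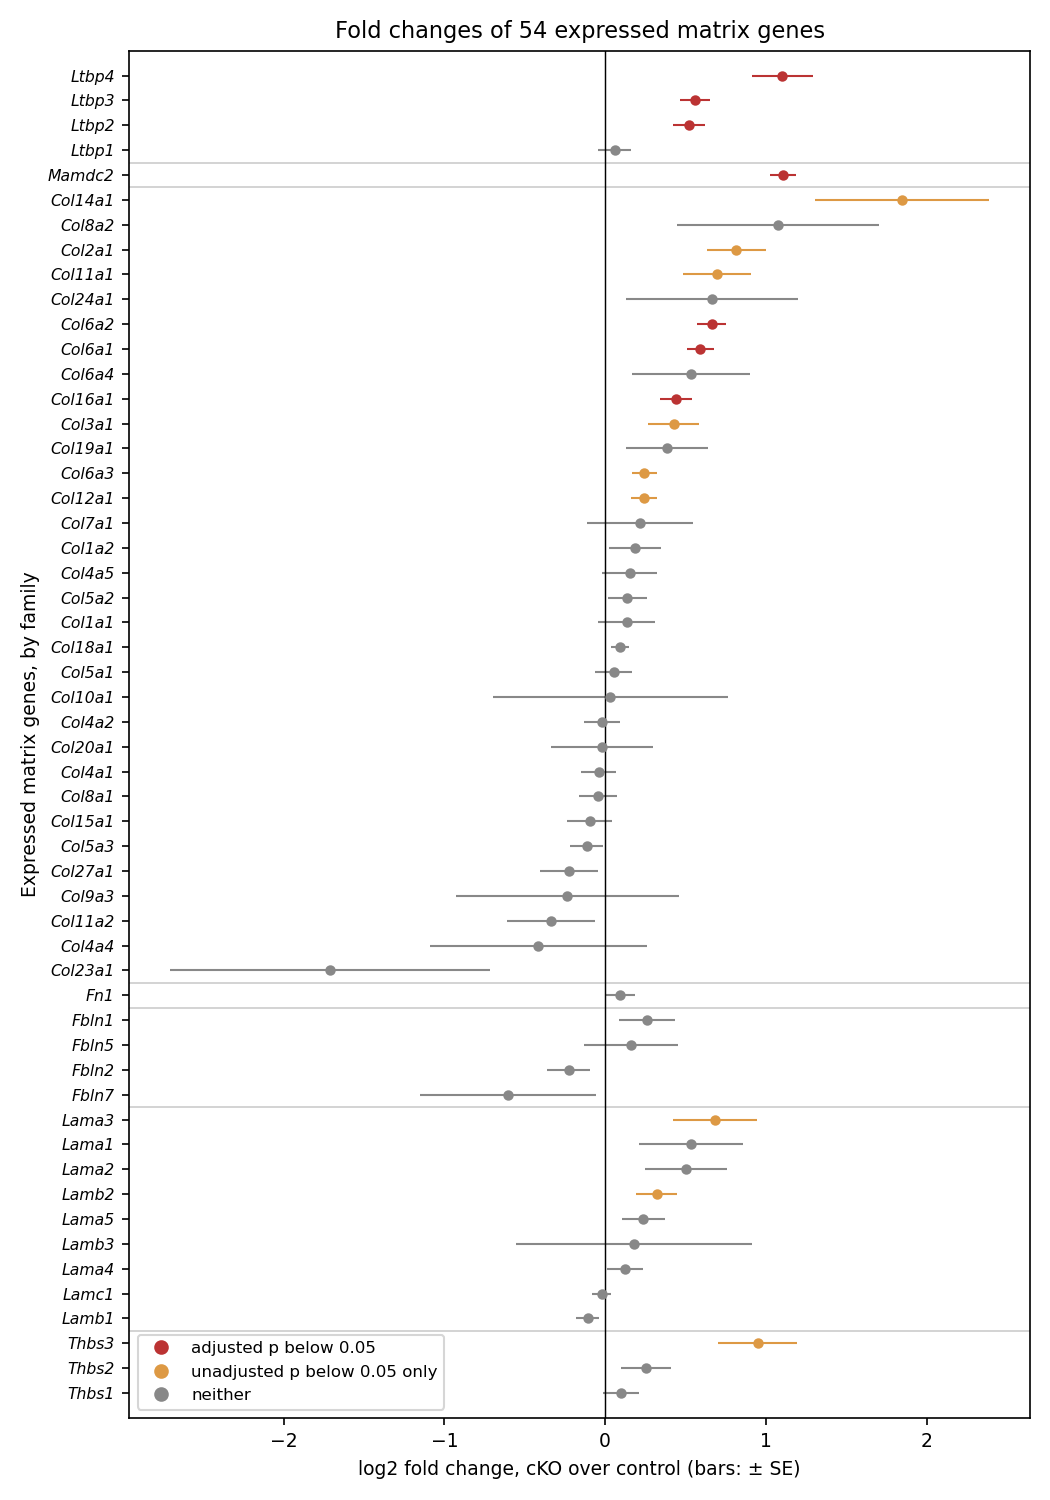
Log2 fold change, cKO over control, of 54 expressed matrix genes by family, with bars of ± 1 SE from edgeR's quasi-likelihood fit. The 7 called genes lie right of 0 between 0.44 and 1.11, while type I collagen, Fn1 and Thbs1 lie near 0.

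Mamdc2, which encodes a secreted protein with MAM domains, had the smallest p-value of the group. Its CPM was 105, 121 and 99.5 in the control libraries, replicates 1, 2 and 3 in that order as in all lists that follow, and 229, 254 and 219 in the cKO libraries. Every cKO library lay above every control library, and the gap between the groups was larger than the spread within either. The log2 fold change was 1.11 ± 0.08 (SE), 2.15-fold, with an edgeR adjusted p of 3.39e-05. Mamdc2 (ENSMUSG00000033207) spans chr19:23302609-23448442 on the minus strand of mm10. A predicted gene on the same strand, Gm50443, overlaps it and held a mean of 0.333 counts per library.

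Type VI collagen moved unevenly among its chains. Col6a1 stood at 235, 244 and 236 CPM in the control libraries and at 370, 399 and 308 CPM in the cKO libraries, a log2 fold change of 0.59 ± 0.08 (edgeR adjusted p = 0.00495). Col6a2 stood at 162, 171 and 164 CPM and at 267, 295 and 224 CPM, a log2 fold change of 0.66 ± 0.09 (edgeR adjusted p = 0.00422). For both chains the groups did not overlap. Col6a3, the long chain of the same filament, had 386, 405 and 390 CPM in the control libraries and 466, 520 and 411 CPM in the cKO libraries. Its groups did not overlap either, but the log2 fold change of 0.24 ± 0.08 was not called by edgeR (adjusted p = 0.132) and was called by DESeq2 (adjusted p = 0.0386). Col6a4, a rare chain, had a log2 fold change of 0.53 ± 0.37 and overlapping groups. Col6a1 (ENSMUSG00000001119, chr10:76708792-76726168) and Col6a2 (ENSMUSG00000020241, chr10:76595762-76623630) are neighbours on the minus strand of mm10, and Col6a3 (ENSMUSG00000048126) lies on chromosome 1.

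The ratio of 2 genes inside a library does not depend on how the library was scaled, and shows how evenly chains moved. Ratios were chosen after the values were seen. Their size depends on the length used for each gene: per longest transcript the control ratios of Col1a1 to Col1a2 were 1.32, 1.32 and 1.34 and those of Col6a1 to Col6a2 were 1.74, 1.704 and 1.73, but the difference between genotypes does not depend on it. In deposited FPKM the Col6a1 to Col6a3 ratio was 1.66, 1.65 and 1.65 in the control libraries and 2.17, 2.10 and 2.04 in the cKO libraries. The Col6a1 to Col6a2 ratio was 2.76, 2.70 and 2.74 in control and 2.63, 2.57 and 2.62 in cKO, and the Col1a1 to Col1a2 ratio was 2.77, 2.77 and 2.82 in control and 2.69, 2.72 and 2.63 in cKO. The first ratio differed by 0.35 on the log2 scale between genotypes, the second by -0.07 and the third by -0.06. Col6a1 and Col6a2 thus kept nearly 1 proportion to each other while both rose against Col6a3. Of 14 ratios compared, 11 did not overlap between genotypes, among them Col6a1 to Col6a2 and Col1a1 to Col1a2. Each of these 11 had a two-sided exact permutation p of 0.1, the smallest that 3 against 3 allows (0.127 after adjustment over the 14). Many of the 14 set a gene whose groups did not overlap over Col1a1 or Ltbp1, whose groups did. Their separation was therefore largely fixed by the choice, and the count of 11 is no support for a change. The Fn1 to Col1a1 ratio (exact permutation p = 1) and the Thbs1 to Col1a1 ratio (exact permutation p = 0.9) overlapped.

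**Figure D3:**
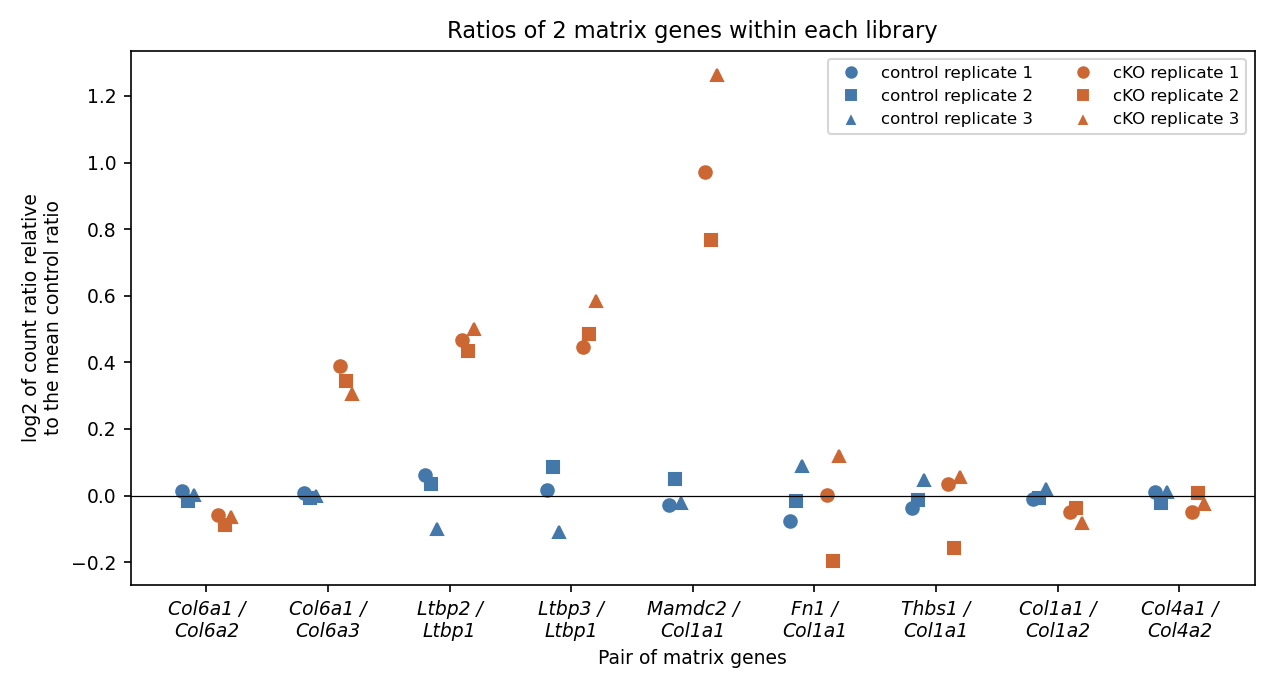
Ratio of the counts of 2 matrix genes in each library, as log2 relative to the mean control ratio, for 9 pairs. The cKO points of Col6a1 over Col6a3, Ltbp2 and Ltbp3 over Ltbp1 and Mamdc2 over Col1a1 stand above all control points, while Fn1 and Thbs1 over Col1a1 overlap.

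Among the LTBPs, 3 of 4 rose. Ltbp4, which helps assemble elastic fibres, stood at 2.40, 2.37 and 2.28 CPM in the control libraries and at 5.82, 5.26 and 4.07 CPM in the cKO libraries, a log2 fold change of 1.10 ± 0.19 (edgeR adjusted p = 0.0127). Ltbp3, a carrier of latent TGF-beta important in the skeleton, stood at 72.1, 71.4 and 62.5 CPM and at 101, 114 and 88.5 CPM, a log2 fold change of 0.56 ± 0.09 (edgeR adjusted p = 0.0131). Ltbp2, the member that does not bind latent TGF-beta, stood at 55.9, 51.7 and 47.2 CPM and at 76.5, 83.0 and 62.7 CPM, a log2 fold change of 0.52 ± 0.10 (edgeR adjusted p = 0.0293). In all 3 genes the lowest cKO library lay above the highest control library. Ltbp1 had 62.0, 58.5 and 58.6 CPM in the control libraries and 64.1, 71.1 and 51.3 in the cKO libraries, and its groups overlapped. The Ltbp3 to Ltbp1 ratio in FPKM was 1.37, 1.44 and 1.26 in control and 1.85, 1.898 and 2.04 in cKO, and the Ltbp2 to Ltbp1 ratio was 1.18, 1.15 and 1.05 in control and 1.56, 1.52 and 1.60 in cKO.

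Ltbp3 (ENSMUSG00000024940, chr19:5740904-5758532, plus strand) overlaps an annotated gene on the opposite strand, and the sources used here do not say whether counting used the strand, so its counts are uncertain to that extent. Ltbp2 (ENSMUSG00000002020, chr12:84783212-84876532, minus strand) overlaps D030025P21Rik, also on the opposite strand, which held a mean of 21.8 counts. Ltbp4 (ENSMUSG00000040488, chr7:27305136-27337692, minus strand) overlaps no other gene among the 26699.

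Col16a1, a fibril-associated collagen (ENSMUSG00000040690, chr4:130047840-130099283, plus strand), stood at 28.9, 31.0 and 28.9 CPM in the control libraries and at 40.8, 45.8 and 33.8 CPM in the cKO libraries. Its groups did not overlap, and the log2 fold change was 0.44 ± 0.10 (edgeR adjusted p = 0.0426). Col12a1 and Col14a1, of the same class, had an unadjusted p below 0.05 without being called by edgeR. Col12a1, a collagen of tendon and bone surfaces, had 0.24 ± 0.08 (edgeR adjusted p = 0.144) with overlapping groups, and DESeq2 called it (adjusted p = 0.0402). Col14a1 had 1.85 ± 0.54 (edgeR adjusted p = 0.104) at only 0.140 to 0.314 CPM in control and 0.582 to 1.31 CPM in cKO.

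**Figure D4:**
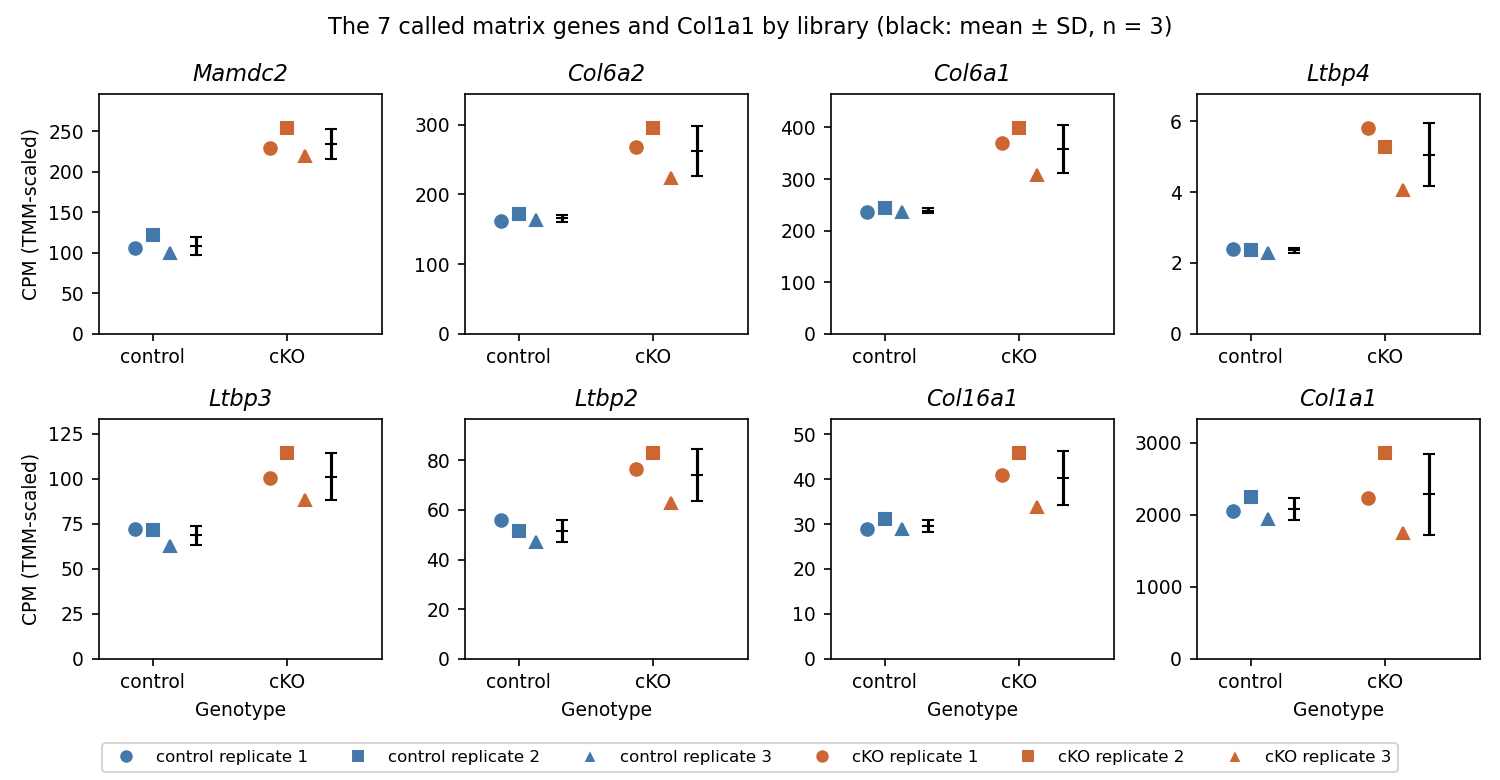
CPM by library for the 7 called matrix genes and for Col1a1, with mean ± SD (n = 3) in black and axes starting at 0. In the 7 called genes every cKO point lies above every control point, and for Col1a1 the cKO points spread to both sides of the control points.

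The most abundant matrix genes other than Mamdc2 and Col6a1 were not called, and their cKO libraries spread widely. Col1a1 had 270, 295 and 256 FPKM in the control libraries and 293, 384 and 232 FPKM in the cKO libraries, a log2 fold change of 0.13 ± 0.18 (edgeR adjusted p = 0.758). Fn1 had 347, 394 and 369 FPKM in control and 397, 454 and 340 FPKM in cKO, a log2 fold change of 0.09 ± 0.09 (edgeR adjusted p = 0.677). Thbs1 had 407, 451 and 409 FPKM in control and 464, 532 and 372 FPKM in cKO, a log2 fold change of 0.10 ± 0.11 (edgeR adjusted p = 0.709). In all 3 genes cKO replicate 2 was the highest of the 6 libraries and cKO replicate 3 the lowest. Col1a2 (0.19 ± 0.16, edgeR adjusted p = 0.633) and Col5a1 (0.05 ± 0.11, edgeR adjusted p = 0.854) had the same order.

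Other fibrillar collagens reached an unadjusted p below 0.05 only. Col2a1, the main collagen of cartilage, had 42.2, 39.2 and 35.3 CPM in the control libraries and 72.4, 82.5 and 50.7 CPM in the cKO libraries, with no overlap. Its log2 fold change was 0.82 ± 0.18 (edgeR adjusted p = 0.0924), and it was called by DESeq2 (adjusted p = 5.68e-07) and by limma-voom (adjusted p = 0.0387). Col11a1, a chain of thin fibrils, had 0.70 ± 0.21 (edgeR adjusted p = 0.112) with no overlap, and Col3a1 had 0.43 ± 0.16 (edgeR adjusted p = 0.25) with overlapping groups. The other fibrillar chains, Col5a2, Col5a3, Col11a2, Col24a1 and Col27a1, gave log2 fold changes from -0.33 to 0.66, none with an unadjusted p below 0.05.

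Of the basement membrane chains described here, none was called by edgeR, and 2, Lama3 and Lamb2, had an unadjusted p below 0.05. Col4a1 (-0.04 ± 0.11) and Col4a2 (-0.02 ± 0.11), which start beside each other on opposite strands of chromosome 8, and Lamc1 (-0.02 ± 0.06) and Lamb1 (-0.11 ± 0.07) had log2 fold changes near 0. Lama3 had 0.68 ± 0.26 (edgeR adjusted p = 0.207) and Lamb2 had 0.32 ± 0.13 (edgeR adjusted p = 0.226). The 5 alpha chains all had positive fold changes, with a median of 0.50, and none was called.

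Of the remaining glycoproteins, Thbs3, a thrombospondin of cartilage and bone, had 1.52, 1.27 and 1.43 CPM in the control libraries and 3.12, 3.02 and 2.01 CPM in the cKO libraries. Its groups did not overlap, and the log2 fold change of 0.95 ± 0.25 was not called by edgeR (adjusted p = 0.0665) and was called by DESeq2 (adjusted p = 0.0453) and limma-voom (adjusted p = 0.0424). Thbs2 had 0.26 ± 0.16, and the 4 fibulins ranged from -0.61 to 0.26 with 2 above 0 and 2 below. Fbln2, the most abundant fibulin, had 0.04 as its highest and -0.54 as its lowest cKO value on the log2 scale relative to the control mean.

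The spread among cKO libraries ran through the group. cKO replicate 2 was the highest of the 6 libraries for 28 of the 55 genes, against 18.6% of all tested genes. cKO replicate 3 was the lowest for 16, against 16.3% of all tested genes. Control replicate 1 was also the lowest for 16, against 17.9%. The summed CPM of markers of stroma and osteoblasts, cells that also make matrix, followed a like order in the cKO libraries. The sum was 2295, 2462 and 2242 in the control libraries and 2376, 2839 and 1916 in the cKO libraries, so the groups overlapped. Of 20 such markers 17 were tested, 3 were called higher and 0 lower, 15 had positive fold changes, and the median was 0.42. At an unadjusted p below 0.05, 7 were higher and 0 lower. DESeq2 called 5 higher and limma-voom 4, with 0 lower in each. Of all tested genes 50.4% had positive fold changes. By edgeR 1.36% of them were called higher, and 8.38% were higher at an unadjusted p below 0.05. The markers called by edgeR were Kitl (0.72 ± 0.14, edgeR adjusted p = 0.0199), Alpl (1.87 ± 0.37, edgeR adjusted p = 0.0268) and Prrx1 (0.41 ± 0.09, edgeR adjusted p = 0.0421). Each of the 3 was called in only 1 of the 6 fits that left out 1 library. Alpl stood at only 0.279 to 0.865 CPM in control. Lum and Ibsp were at 0 to 0.304 CPM, and Bglap was not analysed here. Acta2 and Postn, with log2 fold changes of -0.01 and 0.05, made up most of the sum. The part of stromal cells in the matrix results was not tested.

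**Figure D5:**
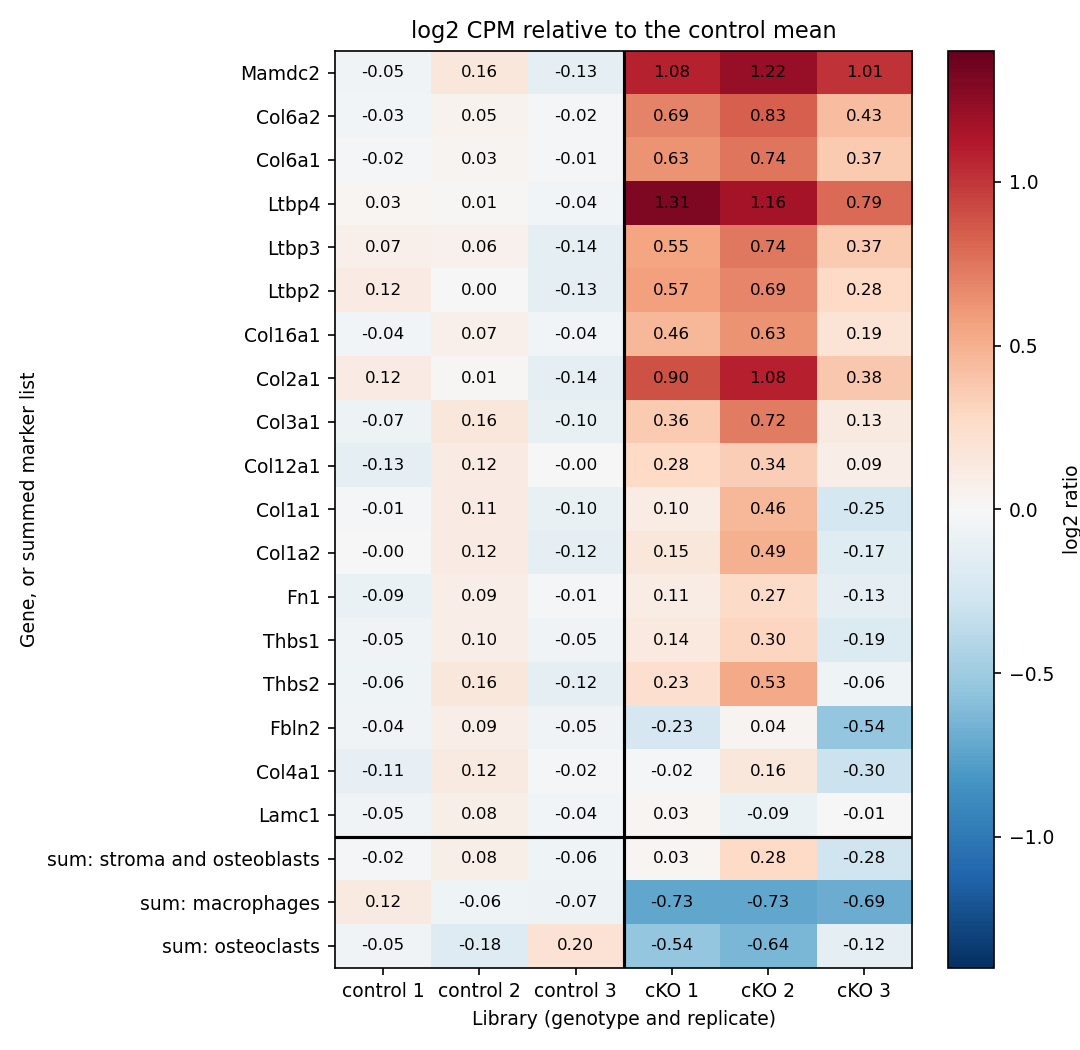
Log2 CPM of 18 matrix genes and of 3 summed marker lists in each library, relative to the control mean. Lyz2, the locus that carries the Cre, made up most of the macrophage sum (mean 17105 CPM in control and 7783 CPM in cKO). cKO replicate 2 is above and cKO replicate 3 below the control mean for Col1a1, Col1a2, Fn1, Thbs1 and the stromal sum, whereas the 7 called genes are above it in all 3 cKO libraries.

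Leaving out single libraries moved the count of called matrix genes. It was 2 without control replicate 1, 3 without control replicate 2, 3 without control replicate 3, 2 without cKO replicate 1, 5 without cKO replicate 2 and 15 without cKO replicate 3. Mamdc2 and Col6a2 were called in each of these 6 fits, and Col6a1 in 4. Ltbp4 and Ltbp3 were called in 2 of the 6, and Ltbp2 and Col16a1 in 1. Without cKO replicate 3, Col2a1 (0.99, edgeR adjusted p = 0.000125) and Col3a1 (0.56, edgeR adjusted p = 0.0358) were among the genes called. Long genes lay slightly higher in the cKO libraries (median log2 fold change 0.05 for the longest 10% and -0.12 for the shortest 10% of well-expressed genes), and matrix genes are long (median 8574 bp, and 5525 bp over those genes). With that trend removed the log2 fold changes stayed close to their values, at 0.54 for Ltbp3 (edgeR adjusted p = 0.0558), 0.51 for Ltbp2 (edgeR adjusted p = 0.0804) and 0.44 for Col16a1 (edgeR adjusted p = 0.0646). These 3 were then not called, and 4 matrix genes were.

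Among genes that act on the same proteins, 1 or 0 per list were called by edgeR, where 2.42% of all tested genes were. Of 30 tested genes for collagen synthesis and cross-linking, 0 were called higher and 1 lower by edgeR, with a median log2 fold change of 0.02. The 1 was Tgm2, a transglutaminase that cross-links fibronectin (-0.27 ± 0.06, edgeR adjusted p = 0.0402), and DESeq2 called 2 lower, Tgm2 and P4hb. Of 29 matrix receptors 1 was called higher by edgeR, Cd36, a scavenger receptor that binds thrombospondin-1 (0.49 ± 0.10, edgeR adjusted p = 0.037), and 0 lower, with a median of 0.06. DESeq2 called Cd36 higher and Cd44 and Itgb1 lower, and limma-voom called 0 receptors higher (Cd36 adjusted p = 0.0532) and the same 2 lower. Of 43 other matrix glycoproteins and proteoglycans 32 were tested. Of the 32, 1 was called higher by edgeR, Mfge8, a bridge between dying cells and integrins (0.55 ± 0.10, edgeR adjusted p = 0.0188), and 0 lower, with a median of 0.07. DESeq2 called 3 higher and 1 lower in that list, and limma-voom 2 higher and 0 lower. Of 16 TGF-beta ligands and latency genes 0 were called by edgeR, with a median of -0.03, where 3 higher and 2 lower had an unadjusted p below 0.05, and DESeq2 called 1 lower, Nrros, which holds latent TGF-beta on myeloid cells. Tgfb1, the ligand that LTBPs carry, had -0.09 ± 0.06 (edgeR adjusted p = 0.503). With single libraries left out, Tgm2 was called in 1 of the 6 fits, Cd36 in 2 and Mfge8 in 3.

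Markers of other cells that a marrow culture can hold were read in the same fit. Of 12 neutrophil markers 9 were tested, 4 were called higher and 0 lower, with a median of 0.88. The summed CPM of the neutrophil list was 201 to 232 in control and 269 to 303 in cKO. Ngp (1.42 ± 0.14), Ltf (1.33 ± 0.13), S100a9 (1.16 ± 0.17) and S100a8 (0.88 ± 0.20) were the called ones. Ngp, Ltf and S100a9 were called in all 6 fits with 1 library left out, and S100a8 in 1. Mmp8, which was not called (edgeR adjusted p = 0.19), made up most of the neutrophil sum. It had 209, 198 and 175 CPM in control and 247, 201 and 241 CPM in cKO, and its groups overlapped. Of 12 megakaryocyte markers 7 were tested and 1 was called lower, Pf4 (-0.58 ± 0.12, edgeR adjusted p = 0.0355). Pf4 was called in 3 of the 6 fits with 1 library left out, and not with the length trend removed. Of 12 endothelial markers 8 were tested, 0 were called by edgeR, 1 had an unadjusted p below 0.05, and DESeq2 called 1 higher, Eng. The endothelial sums were 131 to 160 CPM in control and 155 to 162 in cKO. Vwf (mean 92.7 CPM in control and 89.4 in cKO) and Eng (46.2 and 62.6) made up most of them. Of the 12 endothelial markers 7 stayed under 1 CPM in every library, Cdh5, Tek and Tie1 among them. Of 3 mast cell, 2 B cell, 3 T and NK cell and 2 erythroid markers 0 were called by edgeR or DESeq2, and 0 had an unadjusted p below 0.05 in either. These were the markers that passed the filter on low counts, from lists of 9, 8, 9 and 9 genes, so most were not tested. Of 10 macrophage markers 1 was called lower, Lyz2, the locus that carries the Cre (-1.14 ± 0.08, edgeR adjusted p = 9.39e-06), and the 10 osteoclast markers all had negative fold changes, with a median of -0.39. Of those 10, 0 were called by edgeR or DESeq2, and 3 had an unadjusted p below 0.05 in each. The part of these cells in the matrix results was not tested.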

How the data were processed

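Polyadenylated RNA was sequenced from 3 control and 3 cKO libraries, with 5 µg of RNA (RIN above 7.0) per library and the dUTP method, per the labels' protocols. The submitters' processing notes name cutadapt 1.9 and mm10. For the aligner, the counter, the annotation release and the use of strand, nothing is stated in the sources used here. Per the file headers, each deposited file gives raw counts by gene and, beside them, the authors' FPKM. The length behind the FPKM, recovered from counts and FPKM, followed the union of annotated exons in GENCODE M21, at near 1.15 times it for most matrix genes. The reason for this factor is not known.

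Counts were tested with edgeR 4.0.16 in R 4.3.3: filterByExpr (minimum count 10, minimum total 15), TMM scaling and a robust quasi-likelihood F test, with Benjamini-Hochberg adjustment over all genes tested and calls at an adjusted p below 0.05. The SE was taken as the absolute log2 fold change over the root of F. Levels between genes are compared in FPKM, in places with counts per longest transcript beside them. Shares of counts and summed CPM are not scaled by length. The fit was tested on simulated data. Libraries of 1 genotype differed beyond sampling noise (chi-square per degree of freedom 16.2 to 36.2), so all 6 were used singly. The labels do not say whether a library is its own mouse, and the spread behind the p-values may be partly technical.

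The matrix genes and all other lists were chosen with earlier results of these data known. Every expressed matrix gene but 1 is named with its level (that gene, and 1 gene overlapping a matrix gene, are not reported here), and fold changes with their tests are given for called genes, genes with an unadjusted p below 0.05 and the 8 with the highest mean FPKM. From the other lists up to 4 called genes are named, by smallest p. Other values of single genes were chosen after they were seen. Alternatives were DESeq2 1.42.0, its size factors in edgeR, limma 3.58.1 (voom with sample weights), no filter on low counts, a replicate block, a length correction, stricter definitions of expressed and each library left out. Library totals of 49720701 to 57797282 counts set the precision. No protein table was used here.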

Additional observations from a re-analysis of the deposited data

How the results depend on the processing

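The count of called matrix genes, 7, was 7 with no filter on low counts and with DESeq2's size factors, 9 with limma-voom, 12 with DESeq2 (11 higher, 1 lower), 4 with the length trend removed, and 2 to 15 when single libraries were left out. The count over all tested genes, 407, was 800 with DESeq2, 704 with limma-voom, 372 with the length trend removed (260 higher and 112 lower, against 229 and 178) and 59 to 624 with single libraries left out. Mamdc2 and Col6a2 were called under all 12 alternatives, Col6a1 under 10, Ltbp4 under 8, Ltbp3 under 7, and Ltbp2 and Col16a1 under 6 each. Without cKO replicate 2 the log2 fold changes of Thbs1 (-0.014, and 0.226 at the other end of the range, without cKO replicate 3), Fn1 (-0.0042 and 0.189), Col1a1 (-0.060 and 0.293) and Col5a1 (-0.057 and 0.179) changed sign, and none was called under any alternative. The causes of these differences were not tested. The number of expressed genes, 55, was 47 with 10 counts asked of all 6 libraries and 46 with 50 counts in at least 3.

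Replicate numbers were shared by both genotypes, and the labels do not say that they mark a shared mouse or day. Correlations of same-numbered libraries were 0.046, 0.079 and 0.186 over 9483 genes, so the pairing was not used; every library correlated best with its own number, which is a hint from the data and not the design. With the replicate block 9 matrix genes were higher and 1 lower, 10 in all, and 673 of all tested genes were called. Depth limits the rarest genes: under 1 CPM in most libraries, Col14a1 had an SE of 0.54 and Col23a1 of 0.99.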
